A study of Mus musculus with 6 samples.

Results

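The 49 genes described here carry or read the cyclic AMP (cAMP) and protein kinase A (PKA) signal. They were taken by name: the receptor Gpr161, 4 G alpha subunits, 9 adenylyl cyclases, 6 PKA subunits, 3 PKA inhibitors, 7 A-kinase anchoring proteins, 8 phosphodiesterases, 6 CREB factors and coactivators, and 5 CREB target genes. Of these, 47 had a row among the 19618 genes of the count table and 42 passed a filter on low counts, beside 15422 genes tested in all. Adcy8 and Pde4c are not analysed here.

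RNA was sequenced from keratinocytes of the tail skin of mice aged 4 months, 3 libraries per genotype. The knockout mice carried the K14cre transgene, in which a keratin 14 promoter drives Cre recombinase, and 2 floxed copies of Gpr161 (K14cre+/ Gpr161Flox-Homozygous). The control mice are given without K14cre: 1 is Gpr161Flox-Homozygous and the other two are Gpr161Flox-Heterozygous. Every animal thus carried a floxed allele, the presence of Cre and the loss of Gpr161 cannot be told apart, and the strain is not given in the sources used here. Libraries are named by the tag in their column: DE679, DE685 and DE688 for the knockout, DE680, DE684 and DE689 for the control.

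A receptor coupled to the stimulatory G alpha subunit activates adenylyl cyclase, which makes cAMP, while inhibitory G alpha subunits hold the cyclase back. cAMP binds the regulatory subunits of PKA and sets the catalytic subunits free; PKI proteins block the freed kinase, A-kinase anchoring proteins fix it in place, and phosphodiesterases destroy cAMP. In the nucleus PKA phosphorylates CREB family factors, which turn on genes with a cAMP response element. Gpr161 sits in the primary cilium, is known to raise cAMP there and to bind PKA, and PKA in turn favours the repressor forms of the Gli factors of the Hedgehog pathway.

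Total estimated counts were 17157864 to 25344399 per library, with the knockout library DE685 the shallowest, and 3 counts correspond to 0.117 to 0.173 CPM (a gene's count relative to the library's total, adjusted here by TMM factors). Y-linked transcripts marked 1 library in each group (DE685 and DE684); 4 others had Xist and at most 3 Y-linked counts. The keratins that define basal keratinocytes were abundant in every library: Krt5 had 11196 to 15700 CPM and Krt14 8847 to 11470 CPM. Over all genes, 247 had an adjusted p under 0.05 in edgeR's quasi-likelihood test, 192 higher and 55 lower in the knockout, and the median log2 fold change was −0.0036.

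Among the cAMP and PKA genes edgeR called the phosphodiesterase Pde7a alone. It fell by 0.46 on the log2 scale, and 0 of the 42 tested genes rose at an adjusted p under 0.05 in edgeR. DESeq2 called 1 higher (Pkia) and 2 lower (Pde7a and Gnai3), and it called 6.05% of all genes that it gave an adjusted p. The share called by edgeR was 2.38%, against 1.60% of all genes (1.24% higher and 0.357% lower), so it lay near the background. The 13 members at an unadjusted p under 0.05 (7 higher, 6 lower, 31.0%) compare with 19.0% of all genes. Groups did not overlap in CPM for 18 members, 11 higher and 7 lower (42.9%), against 25.6% of all genes (12.8% in each direction). The median log2 fold change over the 42 genes was 0.060, and the median size regardless of sign was 0.20, against 0.15 over all genes. For 24 of the 42 genes the 95% interval of the log2 fold change lay within ±0.5, and for 33 within ±1. Beyond 0.5 lay 6 genes, Adcy1, Prkar1b, Pkia, Pkib, Pde4a and Nr4a3, each with a positive change and at most 189 counts in any library. Of these, Pde4a (7 to 30 counts per library), Pkib (6 to 39) and Nr4a3 (9 to 21) passed the filter on low counts with the knockout libraries. Each fell short of its cutoff in at least 1 control library. Their directions are therefore not read as a result, nor are the places of Pde4a and Nr4a3 among the 11 higher members without overlap.

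**Figure D1:**
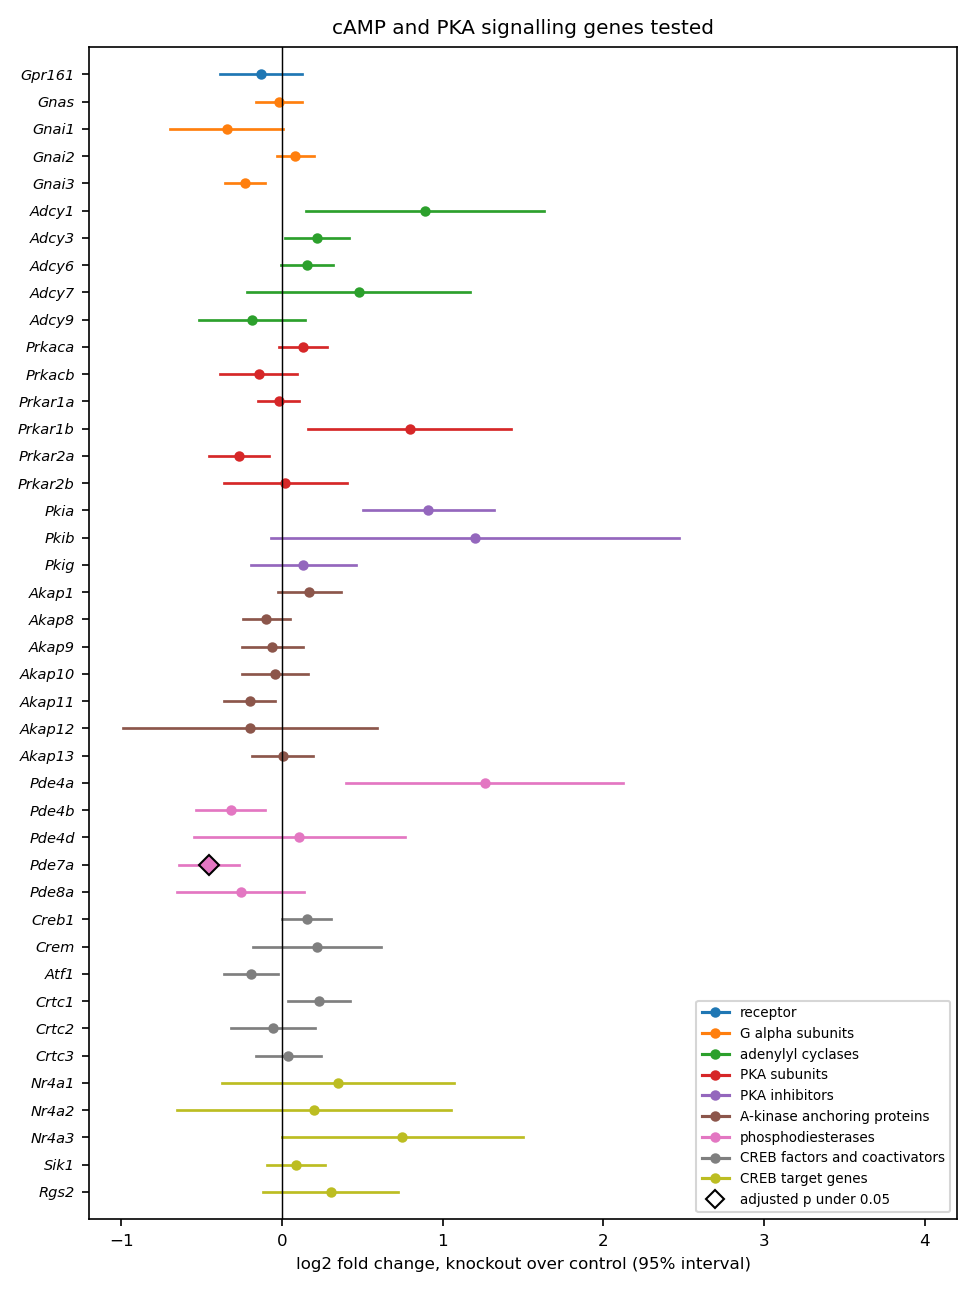
Log2 fold change of the 42 cAMP and PKA genes tested, knockout over control (x axis), by gene (y axis); points are estimates, lines 95% intervals from the fit, colours the roles, and the diamond marks an adjusted p under 0.05. Pde7a at −0.46 carries the single diamond, and the widest intervals belong to genes of low count such as Pkib.

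Gpr161 itself (chromosome 1, 165295789 to 165326745, plus strand, GRCm38) was read at nearly the same level in both groups. Its CPM were 30.2 (DE680), 32.2 (DE684) and 31.9 (DE689) in the control and 26.8 (DE679), 33.6 (DE685) and 25.9 (DE688) in the knockout. DE685 lay above every control library and the other two knockout libraries below them, so the groups overlapped. The log2 fold change of −0.13 had a 95% interval from −0.38 to 0.12 (edgeR adjusted p 0.553). Counts of the whole gene do not separate a transcript that lacks the floxed exons, so the deletion is not checked by them, and every direction here is that of libraries labelled knockout.

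Of the G alpha subunits, the inhibitory Gnai3 was lower in every knockout library without passing the test. Gnai3 (chromosome 3, 108107280 to 108146146, minus strand) had 242, 252 and 246 CPM in DE680, DE684 and DE689 and 211, 217 and 204 CPM in DE679, DE685 and DE688. The groups were 14.7% apart and did not overlap, at −0.23 on the log2 scale (SE 0.05, edgeR adjusted p 0.0892). Gnai1, another inhibitory subunit, had 111, 132 and 88.7 CPM in DE680, DE684 and DE689 and 94.6, 92.7 and 74.2 CPM in DE679, DE685 and DE688. Its control DE689 lay below 2 of the knockout libraries, so the groups overlapped (−0.34, 95% interval −0.69 to 0.0065, edgeR adjusted p 0.270). The inhibitory Gnai2 lay the other way, higher without overlap (169 to 177 CPM against 181 to 186), at 0.082 on the log2 scale (edgeR adjusted p 0.406). Gnas, which encodes the stimulatory subunit, had 253 ± 13.8 CPM in the control and 250.004 ± 6.31 in the knockout (SD, n = 3 each), for a change of −0.02 on the log2 scale with an interval from −0.16 to 0.12. The Gnas count is of a complex imprinted locus whose exons overlap the antisense gene Nespas, so it does not isolate the stimulatory subunit's transcript.

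Levels per kilobase of annotated exon allow the subunits to be set side by side. On that scale Gnai3 made up 42.3 ± 1.96% of the 4 G alpha genes in the control and 39.6 ± 0.723% in the knockout (SD, n = 3 each). Gnai2 made up 25.5 ± 0.851% and 29.7 ± 0.949%, higher in each knockout library than in any control. A share also depends on the levels of the other genes in the total, here the lower Gnai3. Gnas held the smallest share, 12.6% in the control and 13.7% in the knockout. Exon lengths join all annotated isoforms, so a gene with long, rarely used exons is understated.

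Adenylyl cyclases, the enzymes that make cAMP, were represented mainly by Adcy3, Adcy6 and Adcy9. Per kilobase of exon they held 36.7%, 32.5% and 25.2% of the cyclase signal in the control and 39.1%, 33.3% and 20.5% in the knockout. Adcy3, a cyclase known from primary cilia (chromosome 12, 4133103 to 4213525, plus strand), had 52.3, 52.8 and 50.5 CPM in DE680, DE684 and DE689 and 66.7, 60.6 and 53.6 CPM in DE679, DE685 and DE688. The exons of Adcy3 overlap the opposite-strand gene Cenpo. Each knockout library lay above the controls, DE688 only just, and the change was 0.22 on the log2 scale (SE 0.09, edgeR adjusted p 0.234). Adcy6 had 0.16 (adjusted p 0.271), also with no overlap, and Adcy9 −0.19 (adjusted p 0.507). Of the 5 cyclases tested, 2 had an unadjusted p under 0.05 in edgeR (40%, against 19.0% of all genes), and neither edgeR nor DESeq2 called any.

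Adcy1, a calmodulin-stimulated cyclase, was much scarcer. It had 2.44, 1.62 and 3.37 CPM in DE680, DE684 and DE689 and 3.27, 4.97 and 5.60 CPM in DE679, DE685 and DE688, so control DE689 and knockout DE679 overlapped. The change of 0.89 on the log2 scale (SE 0.32, edgeR adjusted p 0.198) did not pass. Adcy7 had 6.26 ± 2.00 and 8.66 ± 2.50 CPM (SD, n = 3 each; adjusted p 0.422). The cyclases Adcy2, Adcy4 and Adcy5 and the phosphodiesterases Pde3b and Pde10a did not pass the filter on low counts; the highest value of these 5 genes in any library was 0.570 CPM, or 13 counts.

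**Figure D2:**
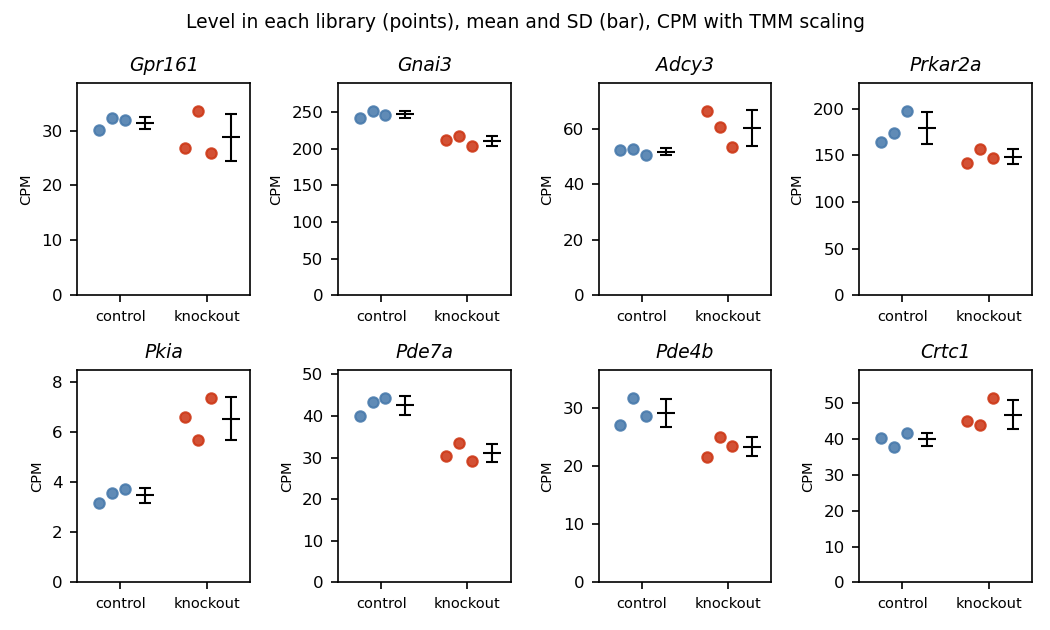
CPM with TMM scaling (y axis, linear from 0) of 8 genes in the control and knockout libraries (points), with the mean and SD of each group (bars, n = 3). Gnai3, Prkar2a, Pde7a and Pde4b sit lower and Adcy3, Pkia and Crtc1 higher in all 3 knockout libraries, while Gpr161 overlaps; of these, Pde7a alone passed the test.

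PKA subunits showed 0 calls among 6 genes in edgeR and in DESeq2, with 2 at an unadjusted p under 0.05 in edgeR (33.3%, against 19.0% of all genes). The main regulatory subunit, Prkar1a (chromosome 11, 109649405 to 109669656, plus strand), had 181, 188 and 171 CPM in DE680, DE684 and DE689 and 177, 179 and 176 CPM in DE679, DE685 and DE688. The knockout values lay inside the range of the controls, and the log2 fold change was −0.02 with a 95% interval from −0.15 to 0.11 (edgeR adjusted p 0.877). Mutation of its human counterpart is the known cause of Carney complex, a disorder with skin pigmentation. Prkar2a, a type II regulatory subunit (chromosome 9, 108689314 to 108750436, plus strand), had 165, 174 and 198 CPM in the control libraries DE680, DE684 and DE689 and 142, 157 and 147 CPM in the knockout libraries DE679, DE685 and DE688. These groups did not overlap, at −0.27 (SE 0.08, edgeR adjusted p 0.142). Prkar1b, a scarce type I regulatory subunit, had 1.06, 1.36 and 1.55 CPM in DE680, DE684 and DE689 and 2.205, 2.83 and 1.91 CPM in DE679, DE685 and DE688. It did not overlap in the other direction, at 0.79 (SE 0.27, adjusted p 0.185), and its exons overlap the same-strand gene Gm15672, so its count is uncertain. Prkar2b had 0.021 (adjusted p 0.960).

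Neither catalytic subunit was called by edgeR or DESeq2. Prkaca lay higher in every knockout library without overlap (73.5 to 83.8 CPM against 85.9 to 88.2). It had 79.6 ± 5.45 CPM in the control and 87.04 ± 1.14 in the knockout (SD, n = 3 each; log2 fold change 0.13, 95% interval −0.022 to 0.28, edgeR adjusted p 0.323). Prkacb had 110 ± 17.2 and 99.7 ± 0.857 CPM (−0.14, interval −0.38 to 0.095, adjusted p 0.484), with control DE689 alone at 130.03. Summed per kilobase of exon, the 2 catalytic genes came to 44.2 to 45.1 CPM per kb in the control and 46.0 to 46.8 in the knockout, again without overlap. On the same scale the 4 regulatory genes came to 1.62, 1.77 and 1.72 times the 2 catalytic genes in DE680, DE684 and DE689, and to 1.48, 1.59 and 1.51 times in DE679, DE685 and DE688. This ratio was lower in every knockout library, though DE685 and DE680 differed by little, and it carries no test because its members were chosen with earlier results known. Within the regulatory genes, Prkar1a held 55.0 ± 2.91% in the control and 58.0 ± 1.63% in the knockout, and Prkar2a 37.0 ± 3.16% and 32.9 ± 0.692% (SD, n = 3 each).

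**Figure D3:**
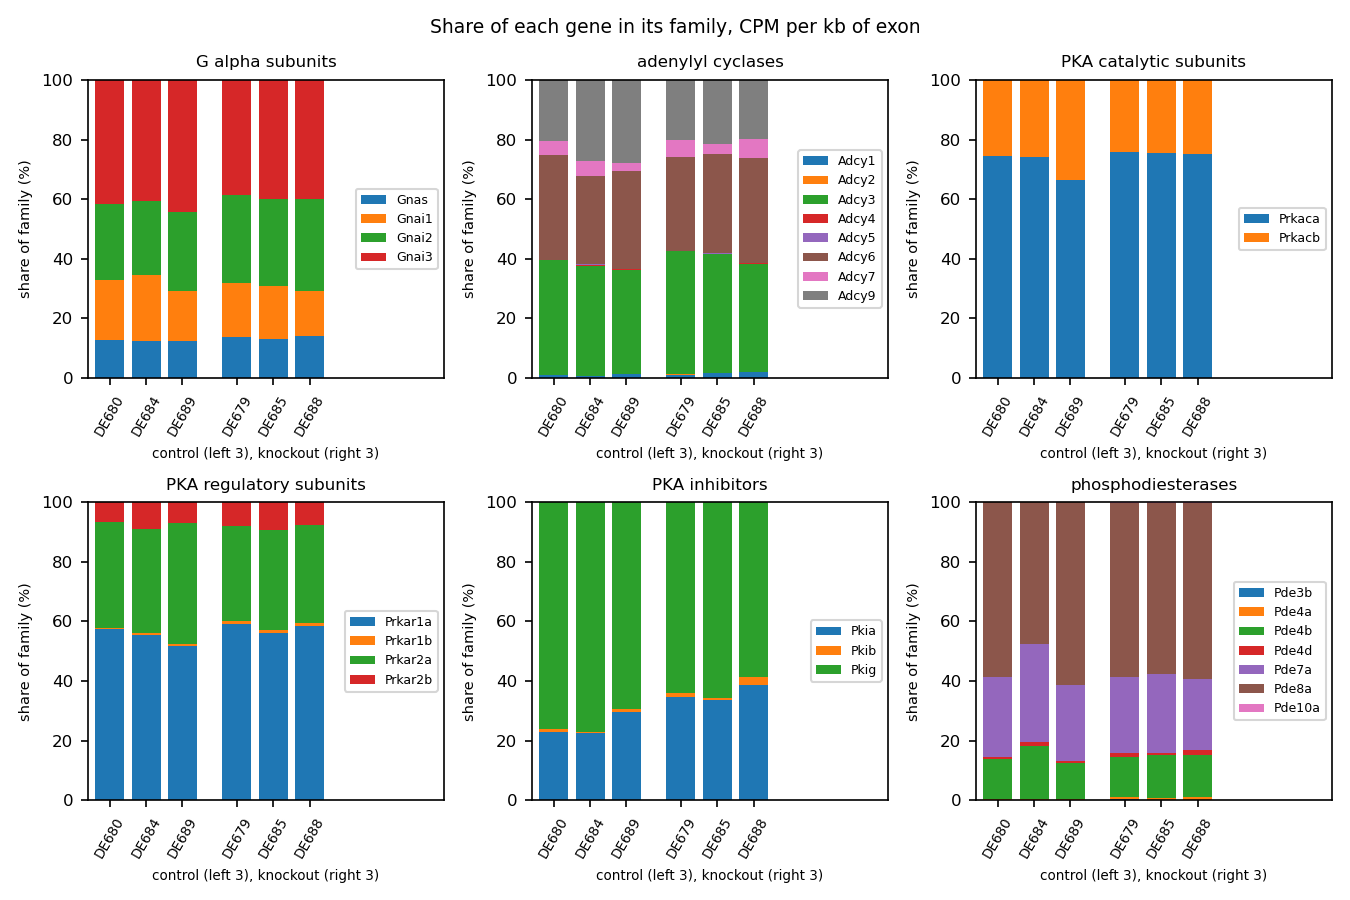
Share of each gene in its family (y axis, percent, from CPM per kb of exon) in each library (x axis, control left and knockout right), for 6 families. Gnai3, Adcy3, Prkaca, Prkar1a, Pkig and Pde8a hold the largest mean share of their families in both groups, and Pkia holds 22.4% to 29.6% of the inhibitor family in the control libraries against 33.8% to 38.8% in the knockout.

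The PKA inhibitors had the largest median log2 fold change of the roles, 0.91, but over 3 genes this median is the value of Pkia alone. PKI proteins occupy the catalytic subunit as pseudosubstrates and carry it out of the nucleus. Pkia (chromosome 3, 7366669 to 7445366, plus strand) had 3.15, 3.55 and 3.73 CPM in DE680, DE684 and DE689 and 6.57, 5.66 and 7.35 CPM in DE679, DE685 and DE688. Every knockout library lay well above every control. The log2 fold change was 0.91 (95% interval 0.50 to 1.32), and the edgeR adjusted p of 0.0551 fell just short of the threshold. It passed in DESeq2 (adjusted p 0.00317), limma-voom (0.0482) and limma on the authors' normalized values (0.0473), so the call for Pkia depends on the method. Pkig, the most abundant inhibitor, had 11.2, 13.1 and 9.36 CPM in DE680, DE684 and DE689 and 13.1, 11.8 and 11.9 CPM in DE679, DE685 and DE688. Its groups overlapped (0.13, edgeR adjusted p 0.651). Pkib had 0.399, 0.307 and 0.436 CPM in the same controls and 0.721, 0.347 and 1.52 CPM in the same knockouts. DE688 stood apart and DE685 lay among the controls, and the log2 fold change of 1.20 had an interval from −0.070 to 2.47. At 6 to 39 counts per library, Pkib passed the filter on low counts with the knockout libraries, so this direction is not read as a result.

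None of the 7 A-kinase anchoring proteins was called by edgeR or DESeq2, and 6 of them had 95% intervals within ±0.5. In edgeR 1 had an unadjusted p under 0.05 (14.3%, against 19.0% of all genes). Akap11, which also binds protein phosphatase 1, was lower in each knockout library: 70.8, 71.1 and 80.05 CPM in DE680, DE684 and DE689, and 65.8, 62.8 and 64.3 CPM in DE679, DE685 and DE688. That is −0.20 on the log2 scale (SE 0.07, edgeR adjusted p 0.174). The nuclear Akap8, the highest of them per kilobase, had 113, 114 and 127 CPM in DE680, DE684 and DE689 and 109, 111 and 112 CPM in DE679, DE685 and DE688. It did not overlap either, though DE688 and DE680 nearly met (−0.10, adjusted p 0.436). The mitochondrial Akap1 had 43.5, 36.9 and 41.1 CPM in the same controls and 47.8, 42.8 and 46.0 CPM in the same knockouts, with overlap (0.17, adjusted p 0.314). Akap9 of the centrosome and Golgi, Akap10 and Akap13 had −0.061, −0.042 and 0.0043, with adjusted p of 0.729, 0.833 and 0.983. Akap12 was near 1 CPM in both groups, and its interval from −0.99 to 0.59 leaves its change unresolved at this depth.

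Phosphodiesterases were led in level by Pde8a and Pde7a, 2 families with high affinity for cAMP. Pde7a (chromosome 3, 19223108 to 19311322, minus strand) had 40.0, 43.3 and 44.3 CPM in DE680, DE684 and DE689 and 30.4, 33.5 and 29.3 CPM in DE679, DE685 and DE688. All knockout libraries lay below all controls. The level was 27.1% lower, or −0.46 on the log2 scale (SE 0.08, 95% interval −0.64 to −0.27, edgeR adjusted p 0.0412). Adjusted p lay between 0.000960 and 0.0473 over the alternatives that kept all 6 libraries. With any 1 library left out it lost the threshold (adjusted p 0.0636 to 0.181), at changes of −0.51 to −0.42. Exons of Pde7a overlap the opposite-strand gene Gm16093, and whether counting used the strand is not given in the sources used here.

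Pde4b, a phosphodiesterase known for its role in inflammation (chromosome 4, 102087543 to 102607259, plus strand), lay in the same direction. It had 27.1, 31.8 and 28.6 CPM in DE680, DE684 and DE689 and 21.7, 24.95 and 23.5 CPM in DE679, DE685 and DE688, with no overlap between the groups. At −0.32 on the log2 scale it did not pass (SE 0.09, edgeR adjusted p 0.136). Pde8a had 45.6, 32.9 and 55.9 CPM in DE680, DE684 and DE689 and 36.1, 38.2 and 38.1 CPM in DE679, DE685 and DE688. Its controls spread on both sides of the knockouts (−0.26, adjusted p 0.446). Pde4a had 0.387 ± 0.0944 CPM in the control and 0.922 ± 0.218 in the knockout (SD, n = 3 each), which is 7 to 30 counts per library. It passed the filter on low counts through the knockout libraries, so no fold change is given. Pde4d had 0.11 (adjusted p 0.873). The 7 phosphodiesterases found summed to 19.2, 17.05 and 22.5 CPM per kb in DE680, DE684 and DE689 and to 15.3, 16.4 and 15.9 in DE679, DE685 and DE688, lower in each knockout library.

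CREB factors and their coactivators differed by little: 5 of the 6 had intervals within ±0.5, and neither edgeR nor DESeq2 called any. In edgeR 3 had an unadjusted p under 0.05 (50%, against 19.0% of all genes). Crtc1, a coactivator that enters the nucleus when dephosphorylated (chromosome 8, 70382355 to 70439579, minus strand), had 40.2, 37.8 and 41.6 CPM in DE680, DE684 and DE689 and 44.9, 44.0 and 51.4 CPM in DE679, DE685 and DE688. The knockout libraries were all above the controls, at 0.23 (SE 0.08, edgeR adjusted p 0.198). Creb1, the founding factor, also lay higher without overlap (0.15, interval 0.0021 to 0.30, adjusted p 0.259). Its close relative Atf1 had 53.2, 54.5 and 58.7 CPM in DE680, DE684 and DE689 against 47.9, 51.7 and 45.9 CPM in DE679, DE685 and DE688, lower without overlap (−0.20, SE 0.07, adjusted p 0.213). Crtc2 and Crtc3 had −0.058 and 0.038, with adjusted p of 0.818 and 0.850.

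The CREB target genes read the output of the pathway, so the stretches before their start sites are shown. Promoters of 39 of the 49 genes matched RefSeq entries (GRCm38.p6), 4 of them CREB targets. Capitals mark the core of the cAMP response element, TGACG, on either strand; letters are those of the gene's own strand, ending at the start site for Nr4a1 and Nr4a2 and at the first annotated exon base for Nr4a3 and Rgs2.
Nr4a1 (chr15:101266596-101266845, plus strand): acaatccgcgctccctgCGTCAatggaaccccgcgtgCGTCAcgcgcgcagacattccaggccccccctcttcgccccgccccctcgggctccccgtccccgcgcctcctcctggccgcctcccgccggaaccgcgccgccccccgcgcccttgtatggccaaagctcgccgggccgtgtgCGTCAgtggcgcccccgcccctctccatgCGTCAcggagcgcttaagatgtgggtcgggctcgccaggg
Nr4a2 (chr2:57124004-57124253, minus strand): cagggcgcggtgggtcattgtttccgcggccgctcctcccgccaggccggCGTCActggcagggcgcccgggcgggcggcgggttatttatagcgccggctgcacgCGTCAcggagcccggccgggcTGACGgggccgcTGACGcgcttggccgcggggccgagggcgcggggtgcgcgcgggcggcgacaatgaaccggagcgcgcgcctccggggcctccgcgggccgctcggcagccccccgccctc
Nr4a3 (chr4:48045055-48045152, plus strand): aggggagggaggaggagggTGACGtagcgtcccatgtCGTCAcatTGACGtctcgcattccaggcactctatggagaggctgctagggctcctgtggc
Rgs2 (chr1:144004162-144004399, minus strand): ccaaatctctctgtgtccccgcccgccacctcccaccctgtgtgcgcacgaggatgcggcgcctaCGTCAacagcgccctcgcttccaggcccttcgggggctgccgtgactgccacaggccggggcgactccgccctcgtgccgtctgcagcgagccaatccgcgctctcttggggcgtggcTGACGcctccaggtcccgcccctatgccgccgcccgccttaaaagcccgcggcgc

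Nr4a1 and Nr4a2 each held 4 cores in 250 bases, Nr4a3 held 3 in 98 bases and Rgs2 2 in 238 bases. In all, 17 of the 39 matched genes held a core within the 250 bases before at least 1 start site. Of 32851 single windows of all genes, 17.8% held one. Several genes have more than 1 window and so more places for a match. A count of genes and a share of windows are therefore not compared here. The full palindrome TGACGTCA, which contains the core, occurred in 1 of the 39 genes, Prkar1a, and in 1.55% of all windows, which are again unlike units. A match describes letters only.

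No CREB target was called by edgeR or by DESeq2, which gave Nr4a3 no adjusted p. In edgeR 0 had an unadjusted p under 0.05. All 5 log2 fold changes were positive, though that of Nr4a3 is limited by the filter on low counts, as given below. Nr4a1, an orphan nuclear receptor induced within minutes by many stimuli, had 9.01, 4.91 and 6.90 CPM in DE680, DE684 and DE689 and 5.34, 10.2 and 11.0 CPM in DE679, DE685 and DE688. Its groups overlapped widely, at 0.35 (95% interval −0.37 to 1.07, edgeR adjusted p 0.579). Nr4a2 had 1.29, 1.58 and 0.793 CPM in the same order of controls and 1.61, 1.68 and 0.934 in the same order of knockouts, again with overlap (0.20, adjusted p 0.807); without DE689 its sign turned (−0.035). Nr4a3 had 0.444, 0.395 and 0.516 CPM in the controls and 0.721, 0.751 and 0.817 in the knockouts, without overlap but at 9 to 21 counts per library (0.75, SE 0.32, adjusted p 0.265). Control DE684, at 9 counts, fell short of the filter's cutoff. Nr4a3 thus passed with the knockout libraries, and its direction is not read as a result.

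Sik1, a kinase that restrains the Crtc coactivators, was the one abundant target. It had 130, 119 and 143 CPM in DE680, DE684 and DE689 and 132, 146 and 138 CPM in DE679, DE685 and DE688. The groups overlapped, and the interval of its log2 fold change, −0.093 to 0.27 around 0.088, is the narrowest of the targets (edgeR adjusted p 0.577). Rgs2, a regulator of G protein signalling, had 4.53, 3.60 and 4.64 CPM in DE680, DE684 and DE689 and 4.96, 5.89 and 4.94 CPM in DE679, DE685 and DE688. Each knockout library was above the controls, at 0.30 (SE 0.18, adjusted p 0.399). Crem, both a factor and a cAMP-induced gene, had 4.17, 3.73 and 3.85 CPM in the controls and 5.09, 4.16 and 4.40 in the knockouts, with DE685 just inside the control range (0.22, adjusted p 0.530). A count of the whole gene does not separate the inducible repressor ICER from other Crem transcripts.

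**Figure D4:**
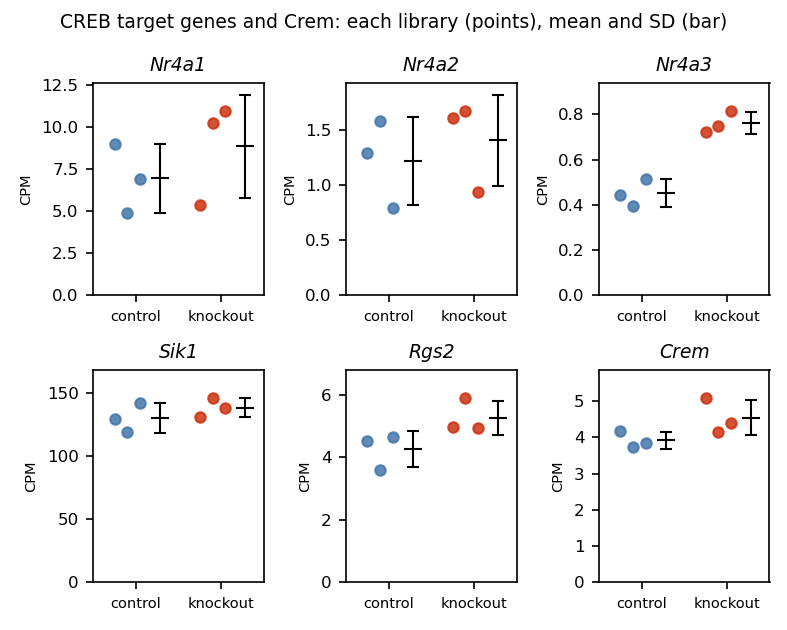
CPM with TMM scaling (y axis, linear from 0) of the 5 CREB target genes and Crem in each control and knockout library (points), with the mean and SD of each group (bars, n = 3). Nr4a3 and Rgs2 do not overlap, Nr4a1, Nr4a2, Sik1 and Crem do, and none passed the test.

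Other genes of the pathway, listed with earlier results known, were called at a similar rate: of 101 genes, 76 were tested, and in edgeR 1 rose and 0 fell (1.32%, against 1.60% of all genes). At an unadjusted p under 0.05 lay 14 higher and 6 lower (26.3%, against 19.0% of all genes). The 14 include Adora2a (3 to 33 counts per library) and Ppargc1a, which passed the filter on low counts through the knockout libraries. This share is therefore not read as a result. DESeq2 called 5 of the 76, all higher, beside 6.05% of all genes that it gave an adjusted p. Among the 5 were Lgr5 and Lgr6, whose G protein coupling is not established. Ptgdr, the receptor for prostaglandin D2 that couples to the stimulatory G protein (chromosome 14, 44851235 to 44859375, minus strand), rose from 1.11, 0.439 and 0.793 CPM in DE680, DE684 and DE689 to 4.16, 3.18 and 2.64 CPM in DE679, DE685 and DE688. The groups stood well apart, 2.08 on the log2 scale (SE 0.37, edgeR adjusted p 0.0395). Ptgdr had 10 to 98 counts per library, and control DE684 fell just short of the cutoff of the filter on low counts. With all genes unfiltered Ptgdr was still called (edgeR adjusted p 0.0394). It too lost the threshold with any 1 library left out (adjusted p 0.0671 to 0.156), and its exons overlap the opposite-strand gene Gm16976. Of 13 other cAMP-induced genes tested, among them Fos, Egr1 and Per1, edgeR called 0, and 2 had an unadjusted p under 0.05 (15.4%, against 19.0% of all genes). Changes were positive for 11 of the 13, where the median over all genes was −0.0036. Both counts include Ppargc1a (2 to 22 counts per library), and the positive ones also Rgs1 (2 to 15 counts). These 2 genes passed the filter on low counts through the knockout libraries, so their direction is not read as a result. DESeq2 called none of the 13, and the fit with a sex covariate called Ppargc1a. Because DESeq2 gave 905 of the 15422 genes no adjusted p, a gene of low count that it did not call may not have been assessed. The cAMP-activated exchange factors Rapgef3 and Rapgef4 had −0.33 (adjusted p 0.218) and 0.12 (adjusted p 0.779).

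Marker lists of the cells a skin preparation can hold are given by sign and summed level. Of all these markers edgeR called only Nfatc1 (hair follicle) and Dcn and Fbln1 (fibroblast), each higher. Sums of the basal, differentiated, melanocyte, immune and stress lists overlapped between the groups. Of 8 basal keratinocyte markers, 6 were positive (median 0.14; summed 27353 to 32400 CPM against 31444 to 35252). All 9 differentiated keratinocyte markers had negative changes (median −0.29; summed level 22865 to 37431 CPM in the control and 20130 to 27406 in the knockout). Of 8 hair follicle markers, 7 were positive and 1 rose (summed 2937 to 3815 CPM against 3987 to 4865), and all 8 melanocyte markers were positive (61.0 to 88.3 CPM against 87.8 to 128). All 10 immune cell markers were positive, though their sums overlapped (37.6 to 143 CPM against 69.8 to 168), with Tyrobp between 0.132 and 1.40 CPM. The fibroblast markers Dcn and Fbln1 rose, and the list summed to 89.9 to 133 CPM against 184 to 219. Dcn alone had a mean of 31.9 CPM in the control and 119 in the knockout. Of the 7 tested, 4 were positive and 3 negative. The negative ones were the collagens Col1a1 (−0.38), Col1a2 (−0.42) and Col3a1 (−0.54), none of them called, and Lum stayed under 1 CPM. Endothelial markers were low, and the 4 tested were all negative (median −1.001; summed over the list 3.65 to 7.11 CPM against 2.08 to 3.62). Of these, Cdh5 (4 to 18 counts per library), Kdr (8 to 40) and Tie1 (1 to 30) passed the filter on low counts with the control libraries. Each fell short of its cutoff in at least 1 knockout library, so their direction and this median are not read as a result. Of 8 dissociation stress markers, 5 were positive (summed 980 to 1267 CPM against 1052 to 1107). The part of these markers in the Pde7a, Pkia and Ptgdr values was not tested, and in such bulk samples fewer cells of a type and less RNA per cell cannot be told apart.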

How the data were processed

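The authors deposited estimated counts per gene, 53.0% to 57.7% of them whole in a library, and a normalized signal. In that deposited signal a value is the estimated count multiplied by 1 factor per library, with 0.001 added (within 0.00139% for genes of at least 100 counts). Per the submitters' processing notes, bcl2fastq 2.20, cutadapt 1.18, STAR 2.7.0f and Partek were used with build mm10; the counting tool, its annotation and its use of strand are not given in the sources used here. Column names show only knockout or control, so libraries were assigned to groups alone. Libraries of a group differed beyond sampling noise (chi-square over degrees of freedom 11.2 to 36.3). The labels do not say that libraries were separate animals, so p-values measure the spread between these libraries.

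Counts were rounded, filtered by filterByExpr and fitted over all 6 libraries with glmQLFit and glmQLFTest of edgeR 4.0.16, TMM scaling (factors 0.975 to 1.03) and genotype as the only term; adjusted p is Benjamini-Hochberg over all 15422 genes, called under 0.05. SEs were computed from the F statistic. An exact permutation test of 3 against 3 cannot go below 0.1. Floors cover counting error only. Exon lengths and positions are from GENCODE M21 (GRCm38): of 19141 genes matched by symbol, 98.8% had the same start and a deposited end 1 base past the annotated one. Alternatives were scaling by RLE or by the upper quartile, all genes unfiltered, a minimum mean of 1 CPM, DESeq2 1.42.0, limma 3.58.1 (voom, and a trend on log2 of the deposited signal plus 1), a sex covariate, each library left out, and, chosen after seeing the data, unrounded counts. The fit was also run on simulated counts with the same dispersion for every gene. The changes set there were larger than that of Pde7a, so that run does not bear on its call. Members, lists and named genes were chosen with earlier results of these data known. Values in every library are given for Gpr161, called members, the 2 members of smallest p and the highest per length in each role, and the CREB targets with Crem; of the other pathway genes, for those called.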

Additional observations from a re-analysis of the deposited data

How the results depend on the processing

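The call of Pde7a as lower held in each of the 9 alternatives with all 6 libraries. DESeq2 called 1 member higher (Pkia) and 2 lower (Pde7a and Gnai3, the latter at −0.23, adjusted p 0.0129). Of all genes it called 569 higher and 310 lower, which is 6.05% of those it gave an adjusted p. limma-voom and limma on the authors' normalized values each called 1 member higher (Pkia). Of the other pathway genes, DESeq2 called 5 higher (Ptgdr, Ptger4, Lgr5, Lgr6 and Creb5; the coupling of Lgr5 and Lgr6 is not established), limma-voom and limma on the normalized values 2 each (Ptgdr and Lgr6), and the sex covariate 3 (Ptgdr, Lgr6 and Ppargc1a), with 299 higher and 110 lower of all genes. The cause was not tested. Leaving out 1 library at a time left 0 members called and 0 to 1 of the other pathway genes (Lgr6, without DE689), with 65 to 109 higher and 3 to 19 lower of all genes; fewer libraries lower these counts by construction. The median change of the members ranged from −0.012 (without DE680) to 0.083 (without DE679) across these fits. Of the named genes, Prkar1a turned to 0.0096 without DE684 (range with 1 library left out −0.054 to 0.0096) and Nr4a2 to −0.035 without DE689 (−0.035 to 0.43), both short of the threshold. With 1 library left out, changes short of the threshold moved widely for Pde8a (−0.44 without DE684 to −0.064 without DE689), Pkig (0.018 without DE689 to 0.26 without DE684) and Pkib (0.51 without DE688 to 1.54 without DE685). Gpr161 kept its sign, from −0.26 to −0.060. No paired analysis was possible because the columns carry no replicate numbers. Genes under about 1 CPM, such as Pkib, Pde4a and Nr4a3, are limited by depth.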

Other observations

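Other receptors of the wider list lay near the threshold and are named here after their values were seen. Ptger4, a prostaglandin E2 receptor coupled to the stimulatory G protein, had 8.87, 7.46 and 6.43 CPM in DE680, DE684 and DE689 and 15.4, 19.99 and 11.1 CPM in DE679, DE685 and DE688, without overlap (log2 fold change 1.03, SE 0.22, edgeR adjusted p 0.0776). Lgr6, an R-spondin receptor of follicle and epidermal stem cells that was listed with these receptors although its G protein coupling is not established, had 33.2, 24.3 and 13.1 CPM against 69.8, 56.8 and 71.2 CPM in the same order (1.49, SE 0.29, adjusted p 0.0556). Ppargc1a, a coactivator induced by cAMP in several tissues, had 0.0887, 0.263 and 0.119 CPM in the controls and 0.890, 0.751 and 0.856 CPM in the knockouts. These are 2 to 22 counts per library, DE680 lies under the 0.133 CPM that 3 counts correspond to there, and the gene passed the filter on low counts through the knockout libraries, so no fold change is given.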
